A study of Mus musculus with 15 samples.

Results

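The expression of 10 genes of the endocytic machinery was measured by bulk RNA-seq in 4T1 cells, a mouse triple-negative mammary carcinoma line. The genes were taken by symbol from the deposited count table, where they were 10 of 40402 listed genes. They encode the clathrin heavy and light chains (Cltc and Clta), the caveolar coat (Cav1, Cav2 and Cavin1), a membrane scission enzyme (Dnm2), the flotillins (Flot1 and Flot2) and 2 early endosome proteins (Rab5a and Eea1). All 10 passed the filter on low counts, a level of 1 CPM (count per 1000000 counts of the library) or more in some library, which 17647 genes passed.

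The 5 conditions were Untreated cells and cells given an extract of blackberry (BLA) or of blueberry (BLU), or gold nanoparticles that had been synthesized in these extracts (BLA-A with blackberry, BLU-A with blueberry), in wild-type (WT) 4T1 cells in RPMI1640 with serum and antibiotics. The study applied the same concentration in all treatments. The length of treatment before RNA collection was not given in the sources used here, and no condition with gold nanoparticles free of berry extract was analysed here. The count table held 3 columns per condition, 15 in all, which the labels number as replicates and assign to separate batch dates. Within a condition the columns agreed more closely than independent counting would give. Their chi-square per degree of freedom was between 0.0951 and 0.475, where independent counting would give about 1. The study's supplement lists a single total of raw reads per condition with subset reads under it, although it also counts each column as a library. The columns of a condition were averaged and counted as 1 library, so a difference between conditions compares 2 libraries and has no replicate check. The batch dates and the conditions cannot be told apart. Library totals ran from 25613778 to 26956442 counts, and intervals given with levels and fold changes are 95% exact intervals that cover counting error only. All 6 epithelial markers (Epcam, Cdh1, Krt8, Krt18, Krt7 and Cldn4) were at 1 CPM or more in every library. Their summed level was 1286 CPM in untreated cells, 951 in BLA, 1795 in BLA-A, 993 in BLU and 1130 in BLU-A. The markers did not move together, since in BLA-A Epcam had its fewest counts (920 beside 1835 in untreated cells) and Cldn4 its most (2754 beside 454), and their part in the members' values was not tested. The markers of other cell types were low, with summed levels of at most 4.65 CPM for immune, 7.32 CPM for endothelial and 1.31 CPM for adipocyte genes. The fibroblast list summed to between 88.2 and 104 CPM, nearly all of it Pdgfra, while Lum and Dcn were at or near 0.

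Endocytosis moves surface receptors, fluid and particles, nanoparticles among them, from the plasma membrane into vesicles. In the clathrin route, heavy and light chains assemble into a lattice around a budding pit. In the caveolar route, caveolins inserted in the membrane and a cavin coat shape small flask-like pits. Dynamin constricts the neck of a pit and releases the vesicle. Flotillins form membrane microdomains that are linked to uptake without clathrin. Vesicles from these routes fuse with the early endosome, where the small GTPase RAB5 recruits the tether EEA1.

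Cav1 and Cavin1 had the widest ranges over the libraries, and the 250 bases before the start of their canonical transcripts, which is also the gene start for both, are shown for that reason. Both were read from the GRCm39 genome, 5′ to 3′ on the strand of the gene, and capitals mark matches to the searched motifs. For Cav1 the window is chr6:17305890-17306139 on the plus strand, and for Cavin1 it is chr11:100861714-100861963 on the minus strand.
Cav1: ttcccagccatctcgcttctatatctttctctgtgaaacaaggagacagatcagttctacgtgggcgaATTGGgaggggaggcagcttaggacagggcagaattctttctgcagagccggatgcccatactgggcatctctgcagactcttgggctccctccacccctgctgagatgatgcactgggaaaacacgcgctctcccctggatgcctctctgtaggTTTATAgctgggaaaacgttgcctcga
Cavin1: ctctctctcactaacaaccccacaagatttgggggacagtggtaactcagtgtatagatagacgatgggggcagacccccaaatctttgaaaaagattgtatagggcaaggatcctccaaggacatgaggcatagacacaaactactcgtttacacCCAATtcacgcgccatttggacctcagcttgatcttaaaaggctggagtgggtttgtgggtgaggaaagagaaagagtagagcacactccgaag
The motifs searched on both strands were the GC box GGGCGG, the CCAAT box CCAAT and the TATA box TATAAA, whose letters do not contain each other. The Cav1 window held a CCAAT match 182 to 178 bases before the start and a TATAAA match 27 to 22 bases before it, both on the opposite strand. The Cavin1 window held a CCAAT match 94 to 90 bases before the start, and neither window held GGGCGG. Among windows of the same length before 21769 protein-coding genes, 36.3% held GGGCGG, 36.5% held CCAAT and 11.9% held TATAAA. Of the 10 genes, 5 held GGGCGG, 8 held CCAAT and 1 held TATAAA, in windows before the canonical transcript, whose start differs from the gene start for Cav2, Clta, Eea1 and Flot2. The Cav1 window was 54.0% GC and the Cavin1 window 47.6%, beside a median of 53.2% over all windows.

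Levels between genes were compared as TMM-normalized CPM per kb of merged exons, averaged over the 5 libraries. Cavin1 and Cltc were the highest, at 47.3 and 47.0 CPM per exon kb. Dnm2 followed at 17.5, Clta at 16.5, Eea1 at 14.2, Flot2 at 12.8 and Rab5a at 9.22 CPM per exon kb. Cav2 at 7.45, Flot1 at 7.28 and Cav1 at 5.65 CPM per exon kb were the lowest. The ranges over the libraries overlapped between all neighbours in this order except Cltc, at 38.6 to 71.0 CPM per exon kb, and Dnm2, at 15.8 to 20.5. Cavin1 and Cltc changed places between libraries, since Cavin1 was above Cltc in untreated cells (45.7 against 41.8 CPM per exon kb) and below it in BLA (32.0 against 42.4). Because the authors counted reads over whole genes, introns included, a level per kb of exon is not a level of mature mRNA. Per kb of gene span, only 4 of the 10 ranks were kept, and Dnm2 moved from rank 3 to rank 8 and Eea1 from rank 5 to rank 9 while Cavin1, Cltc and Cav1 kept ranks 1, 2 and 10.

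**Figure D1:**
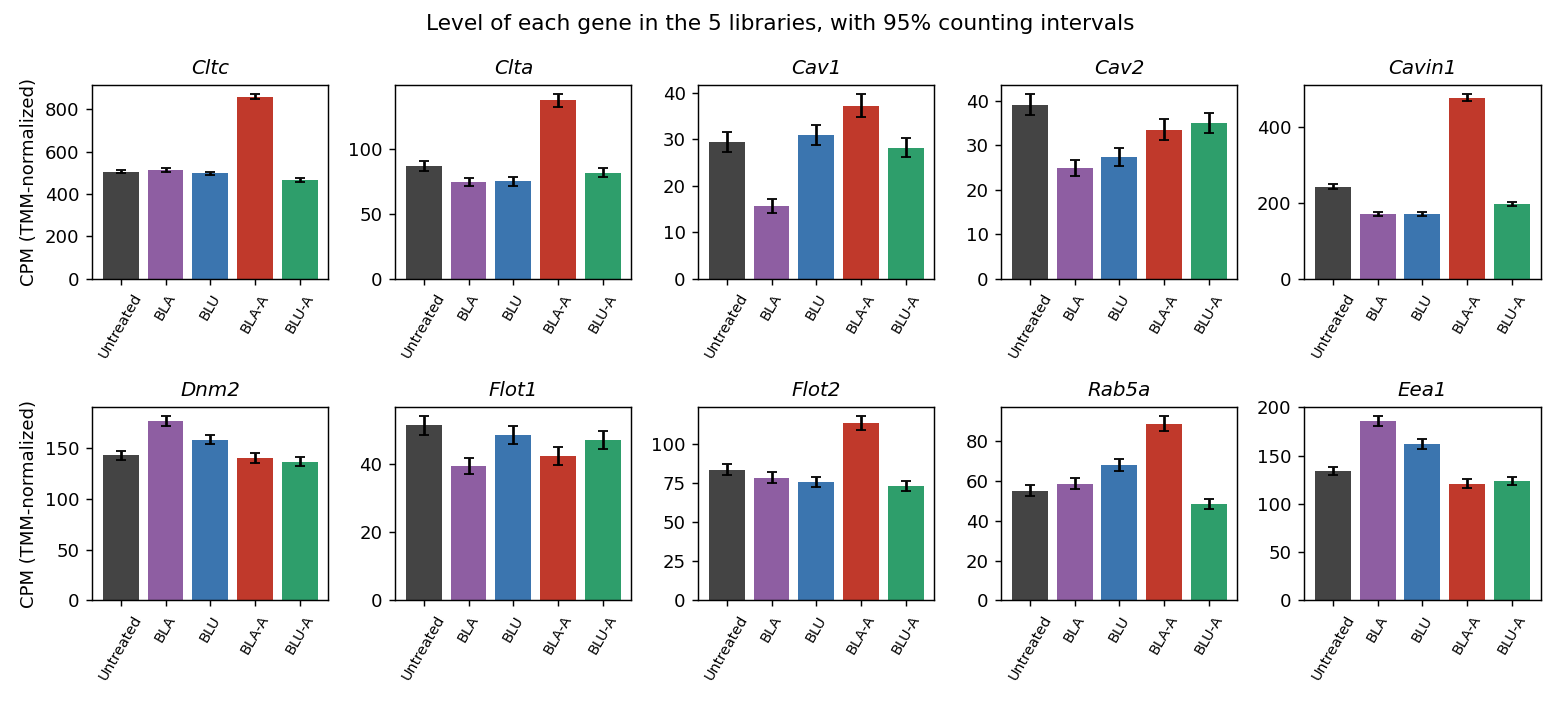
TMM-normalized level (CPM, linear axis from 0) of each of the 10 genes in the library of each condition, with 95% exact counting intervals as bars. BLA-A is the highest library for Cltc, Clta, Cav1, Cavin1, Flot2 and Rab5a, and BLA is the highest for Dnm2 and Eea1.

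Both clathrin chains were highest in BLA-A. Cltc, the heavy chain, lies at chr11:86584060-86648928 on the minus strand, and Clta, a light chain, at chr4:44004439-44034394 on the plus strand (GRCm39, GENCODE M39). Cltc was at 506.0 CPM in untreated cells, 513.0 in BLA, 860.0 in BLA-A, 497.4 in BLU and 467.0 in BLU-A. Clta was at 86.6 CPM in untreated cells, 74.3 in BLA, 137.1 in BLA-A, 74.8 in BLU and 81.7 in BLU-A. Outside BLA-A, the other 4 libraries lay between 467.0 and 513.0 CPM for Cltc and between 74.3 and 86.6 CPM for Clta. Against untreated cells, the log2 fold change in BLA-A, taken on CPM plus 0.5, was 0.76 for Cltc (interval 0.73 to 0.80) and 0.66 for Clta (0.58 to 0.74). The other log2 fold changes against untreated cells ran from -0.12 to 0.02 for Cltc and from -0.22 to -0.08 for Clta. The ratio of Cltc to Clta, per exon kb, stayed between 2.60 and 3.13 over the 5 libraries. In bulk RNA, fewer cells with a transcript and less of it per cell cannot be told apart.

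The 3 caveolar genes were all lower in BLA than in untreated cells, but differed in direction in BLU and in BLA-A. Cav1, the scaffold caveolin, lies at chr6:17306140-17341451 and Cav2, its partner caveolin, next to it at chr6:17281026-17289877, both on the plus strand, while Cavin1, the coat protein, lies at chr11:100847559-100861713 on the minus strand. Cav1 was at 29.4 CPM in untreated cells, 15.6 in BLA, 37.1 in BLA-A, 30.9 in BLU and 28.1 in BLU-A. BLA was the low library for Cav1, with 424 counts beside 746 to 861 in the other 4, and its log2 fold change against untreated cells was -0.90 (interval -1.09 to -0.74). In BLU, whose Cav1 level was within counting error of untreated cells, the log2 fold change was 0.07 (-0.07 to 0.21).

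Cav2 was at 39.1 CPM in untreated cells, 24.9 in BLA, 33.6 in BLA-A, 27.4 in BLU and 35.0 in BLU-A. All 4 treatments were below untreated cells, with log2 fold changes of -0.64, -0.22, -0.51 and -0.16 in the same order and no interval that reached 0. The ratio of Cav1 to Cav2 per exon kb was 0.647 in untreated cells, 0.538 in BLA, 0.952 in BLA-A, 0.970 in BLU and 0.692 in BLU-A. Per kb of gene span, Cav1 was well below Cav2 in every library (0.832 against 4.42 CPM per span kb in untreated cells).

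Cavin1 was at 243.1 CPM in untreated cells, 170.4 in BLA, 478.2 in BLA-A, 170.4 in BLU and 196.5 in BLU-A. It had the widest range of the 10 genes, 1.49 on the log2 scale, with BLA-A alone above untreated cells. Its log2 fold change against untreated cells was -0.51 in BLA (interval -0.57 to -0.46), -0.51 in BLU (-0.57 to -0.46), 0.97 in BLA-A (0.93 to 1.02) and -0.31 in BLU-A (-0.36 to -0.25). Cavin1 exceeded Cav1 per exon kb in every library, by 7.76 times in untreated cells, 10.3 in BLA, 12.1 in BLA-A, 5.17 in BLU and 6.55 in BLU-A.

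Dnm2, the ubiquitous dynamin (chr9:21336183-21419059, plus strand), had the narrowest range, 0.37 on the log2 scale. It was at 143.2 CPM in untreated cells, 177.0 in BLA, 140.2 in BLA-A, 158.6 in BLU and 136.6 in BLU-A. Its log2 fold changes were 0.30 in BLA and 0.15 in BLU, and -0.03 in BLA-A and -0.07 in BLU-A, so that both extract libraries were the highest. The BLA-A value turned to 0.03 with DESeq2 size factors, so it has no direction.

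The flotillins differed from each other in BLA-A. Flot1 (chr17:36134075-36147515, plus strand) was at 51.1 CPM in untreated cells, 39.2 in BLA, 42.1 in BLA-A, 48.3 in BLU and 46.9 in BLU-A. Flot2 (chr11:77928723-77951263, plus strand) was at 83.5 CPM in untreated cells, 78.4 in BLA, 113.4 in BLA-A, 75.7 in BLU and 73.1 in BLU-A. For BLA-A against untreated cells, the log2 fold change was -0.28 for Flot1 and 0.44 for Flot2, and the ratio of Flot2 to Flot1 per exon kb was 2.55, beside 1.48 to 1.90 in the other libraries. Flot1 overlaps the tubulin gene Tubb5 on the opposite strand over 2707 bases. Tubb5 had 17561 to 41049 counts per library and Flot1 977 to 1363. The authors counted by strand on mates merged into single-end files, and how far this kept the reads of Flot1 and Tubb5 apart was not tested. In CPM, Tubb5 was highest in BLA-A, while Flot1 was lowest in BLA.

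The early endosome genes also differed from each other. Rab5a (chr17:53786241-53815975, plus strand) was at 55.3 CPM in untreated cells, 58.7 in BLA, 88.9 in BLA-A, 68.1 in BLU and 48.4 in BLU-A. Its log2 fold change was 0.68 in BLA-A (interval 0.59 to 0.78) and -0.19 in BLU-A (-0.30 to -0.08). BLA-A and BLU-A were thus its highest and lowest libraries. Eea1 (chr10:95776512-95881387, plus strand) was at 134.0 CPM in untreated cells, 185.8 in BLA, 120.7 in BLA-A, 161.8 in BLU and 123.7 in BLU-A. Its log2 fold change was 0.47 in BLA (0.41 to 0.53) and 0.27 in BLU (0.21 to 0.34), and both nanoparticle libraries were below untreated cells. The ratio of Eea1 to Rab5a per exon kb was 1.64 in untreated cells, 2.15 in BLA, 0.921 in BLA-A, 1.61 in BLU and 1.73 in BLU-A, above 1 in every library except BLA-A. This order holds per kb of exon only, since per kb of gene span Eea1 was below Rab5a in all 5 libraries (1.28 against 1.86 CPM per span kb in untreated cells).

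Overlaps with other genes in the count table were smaller for the other members. Clta overlaps Gne over 321 bases, Cltc overlaps Gm42085 over 1898, Rab5a overlaps Pp2d1 over 1488 and Dnm2 overlaps Tmed1 over 387, all on the opposite strand. The partner had fewer counts than the member in each library, at most 1341 for Gm42085 beside 12378 to 19936 for Cltc. Cav1, Cav2, Cavin1, Flot2 and Eea1 overlap no other gene of the count table by symbol. In GENCODE, however, Cav1 and Cav2 lie wholly within the noncoding gene Gm15581, and Cavin1 overlaps Gm57383 over 1021 bases, all on the opposite strand. Whether the count table holds these genes under other symbols was not checked.

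Each treatment was then set against untreated cells over all 10 genes. The number of members whose log2 fold change exceeded 1 in size was 0 for each treatment. Of all 17647 genes, 16.5% exceeded it in BLA, 20.9% in BLA-A, 10.3% in BLU and 7.85% in BLU-A. Of the 9765 genes with a mean of at least 10 CPM, as all 10 had, the shares were 5.22%, 12.6%, 2.4% and 0.86% in the same order. Cavin1 in BLA-A, at 0.97, was the value just under the threshold, and it passed at 1.03 with DESeq2 size factors.

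At a smaller threshold of 0.5 in size, 3 genes passed in BLA (Cav1, Cav2 and Cavin1), all lower. In either direction 29.3% of the genes with a mean of at least 10 CPM and 42.6% of all genes kept passed, and 13.7% of the former were lower. In BLU 2 passed (Cav2 and Cavin1), both lower and both at -0.51, just past the threshold, beside 18.4% and 32.9% in either direction and 6.46% lower. In BLA-A 4 passed (Cltc, Clta, Cavin1 and Rab5a), all higher, beside 41.6% and 49.5% in either direction and 25.3% higher. With scaling by total counts 2 of these 4 passed, Cltc at 0.57 and Cavin1 at 0.78, while Clta was at 0.47 and Rab5a at 0.49. In BLU-A 0 passed, beside 7.64% and 24.9%. Counted in either direction, the members' shares were near or below the background.

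The median log2 fold change of the 10 genes was -0.15 in BLA, 0.39 in BLA-A, -0.05 in BLU and -0.12 in BLU-A, and that of all genes kept was between -0.01 and 0.00. Scaling by total counts instead of TMM moved the median of all genes in BLA-A by -0.17 and that of the 10 genes to 0.20. The 4 comparisons share the untreated library.

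**Figure D2:**
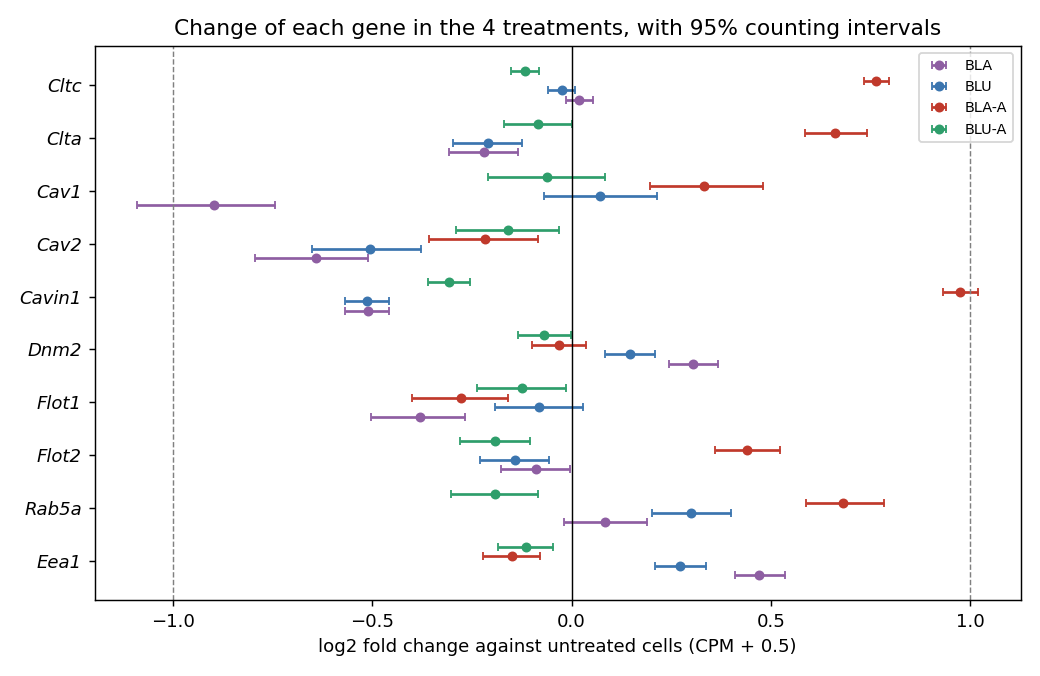
Log2 fold change (CPM plus 0.5) of each gene against untreated cells in the 4 treatments, with 95% counting intervals; dashed lines mark 1 in size. BLA-A is to the right of the other treatments for Cltc, Clta, Cav1, Cavin1, Flot2 and Rab5a, although for Cav1 its interval overlaps that of BLU. All BLU-A values lie between -0.31 and -0.06.

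In a comparison of all 4 treated libraries with untreated cells, the edgeR quasi-likelihood test called 0 of the 10 genes and 4 of 17647 genes, 0.0227%. The adjusted p of each member was 0.999 (Benjamini-Hochberg over 17647 genes), none had an unadjusted p under 0.05, and 481 genes (2.73%) did. The DESeq2 Wald test called 0 members and 17 genes. Without the BLA-A library the quasi-likelihood test called 45 genes and still 0 members. The biological coefficient of variation in this fit was 0.452, and the spread it estimates is that between different treatments, since untreated cells had 1 library.

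The gold nanoparticles were next compared with the plain extract of the same berry. Cavin1 and Cav1 passed a log2 fold change of 1 in BLA-A against BLA, and 0 members did in BLU-A against BLU. Beside these counts, 24.5% of all genes kept and 17.5% of those with a mean of at least 10 CPM passed in the blackberry pair, and 6.76% and 0.358% in the blueberry pair. In the blackberry pair, 11.6% of the genes with a mean of at least 10 CPM were over 1. Cavin1 was 2.80-fold higher in BLA-A than in BLA, a log2 fold change of 1.49 (interval 1.44 to 1.54), and Cav1 2.34-fold higher, 1.23 (1.09 to 1.43). Against untreated cells, Cav1 was at 0.33 in BLA-A and at -0.90 in BLA on the same scale. The count of 2 of 10 was near the background of the blackberry pair.

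At the threshold of 0.5, 7 of the 10 genes passed in the blackberry pair, beside 53.9% of all genes kept and 48% of those with a mean of at least 10 CPM. In the latter group 26.5% passed higher and 21.5% lower. Cltc (0.74), Clta (0.88), Cav1, Cavin1, Flot2 (0.53) and Rab5a (0.60) were higher with the nanoparticles and Eea1 was lower (-0.62, interval -0.69 to -0.56). With scaling by total counts 5 passed, without Flot2 (0.37) and Rab5a (0.44), and with DESeq2 size factors 8, Cav2 (0.50) added. In the blueberry pair 0 of 10 passed, beside 22.7% and 6.1%. There Rab5a (-0.49), Eea1 (-0.39) and Cav2 (0.35) were the largest in size. The median of the 10 genes was 0.56 in the blackberry pair, where all genes kept had -0.08, and -0.07 in the blueberry pair, where all genes kept had -0.02. These comparisons share the extract libraries with those against untreated cells.

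The 2 berries differed in this respect for several members. Cltc was higher in BLA-A than in BLA (0.74, interval 0.71 to 0.78) and lower in BLU-A than in BLU (-0.09, -0.13 to -0.06). Rab5a was higher in BLA-A than in BLA (0.60, 0.50 to 0.70) and lower in BLU-A than in BLU (-0.49, -0.60 to -0.39). The blackberry value minus the blueberry value was 1.36 for Cav1, 1.28 for Cavin1, 1.09 for Rab5a and 0.84 for Cltc on the log2 scale. It was 0.08 for Cav2, -0.12 for Dnm2 and -0.23 for Eea1. With 1 library per condition the differences between berries could not be tested.

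**Figure D3:**
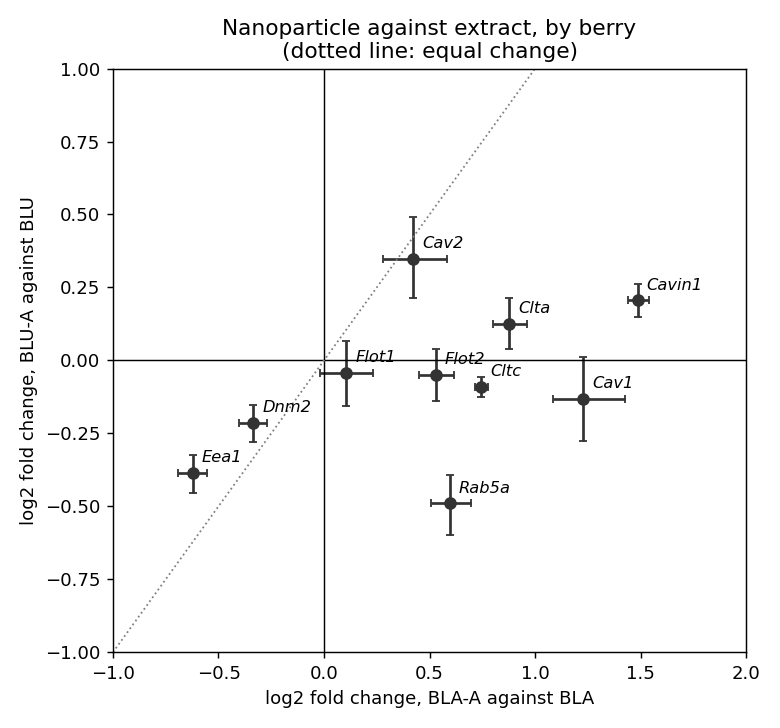
Log2 fold change of nanoparticle against extract for blackberry (horizontal axis) and blueberry (vertical axis), 1 point per gene with 95% counting intervals on both axes; the dotted line marks equal change. Cav2, Dnm2 and Eea1 lie near the line, while Cavin1, Cav1, Clta, Cltc and Rab5a lie far to its right.

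In the edgeR quasi-likelihood test of the 2 nanoparticle libraries against the 2 extract libraries, 0 of the 10 genes and 0 of 17647 genes (0%) passed an adjusted p of 0.05. The spread in this test is that between the 2 berries within each form, with 2 residual degrees of freedom, and not that between replicates. Cavin1 had a log2 fold change of 0.99 (SE 0.39, unadjusted p 0.0391, adjusted p 0.702, edgeR) and Eea1 one of -0.51 (SE 0.21, unadjusted p 0.0460, adjusted p 0.702, edgeR). Cavin1 was higher and Eea1 lower with the nanoparticles in both berries. They were the 2 members with an unadjusted p under 0.05, and 1058 genes, 6%, had one. The DESeq2 Wald test called 0 members and 36 genes. Without the BLU-A library, 5 members were called (Cltc, Clta, Cavin1, Flot2 and Rab5a, all higher), beside 24.3% of 17416 genes, with the lone BLA-A library assumed to vary like the others. Without each of the other treated libraries in turn, 1 to 47 genes and 0 members were called.

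The length of the gene moved with some of these differences. Over the 9487 genes with a mean of at least 10 CPM and an annotated span, the log2 fold change in BLA had a median of -0.28 for genes up to 20 kb, -0.02 for 20 to 60 kb and 0.31 for genes over 60 kb. In BLU the medians were -0.22, -0.02 and 0.28. Across these genes, which are not independent replicates, Pearson's r with log2 span was 0.473 in BLA and 0.490 in BLU, but 0.0030 and 0.0737 over all 16347 genes kept with a span, low genes included. In BLA-A against untreated cells the genes with a mean of at least 10 CPM showed no such trend. Their medians were 0.14, 0.03 and 0.12 and r was -0.0617. Over all genes kept with a span, the medians fell with length there, at 0.10, -0.03 and -0.14, and r was -0.275. In BLA-A against BLA the medians were 0.39, 0.02 and -0.26, and in BLU-A against BLU 0.13, -0.004 and -0.14. Spans were taken from GENCODE and the authors counted on RefSeq genes, introns included.

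Among the members, Cav2 (8.85 kb), Flot1 (13.4 kb) and Cavin1 (14.2 kb) are the shortest and Eea1 (104.9 kb) and Dnm2 (82.9 kb) the longest. Eea1 and Dnm2 had the highest log2 fold changes of the 10 genes in BLA, which lay 0.16 above and 0.01 below the median of their length group. Cavin1 in BLA was at -0.51 where its group had -0.28, and 72.9% of that group had a higher value. Cav1 (35.3 kb) in BLA was at -0.90 where its group had -0.02, and 98.7% of the group had a higher value. In BLA-A against BLA, Cltc (64.9 kb) was at 0.74 where its group had -0.26, and 4.14% of the group was higher. There 4.57% of its group was higher than Cav1 and 10.2% than Cavin1, whereas Cav2 at 0.42 was close to its group median of 0.39. In BLU-A against BLU, 97.9% of its group was higher than Rab5a (29.7 kb). Cltc there was at -0.09 where its group had -0.14, and 39.2% of the group was higher. The part of gene length in the members' values was not tested.

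**Figure D4:**
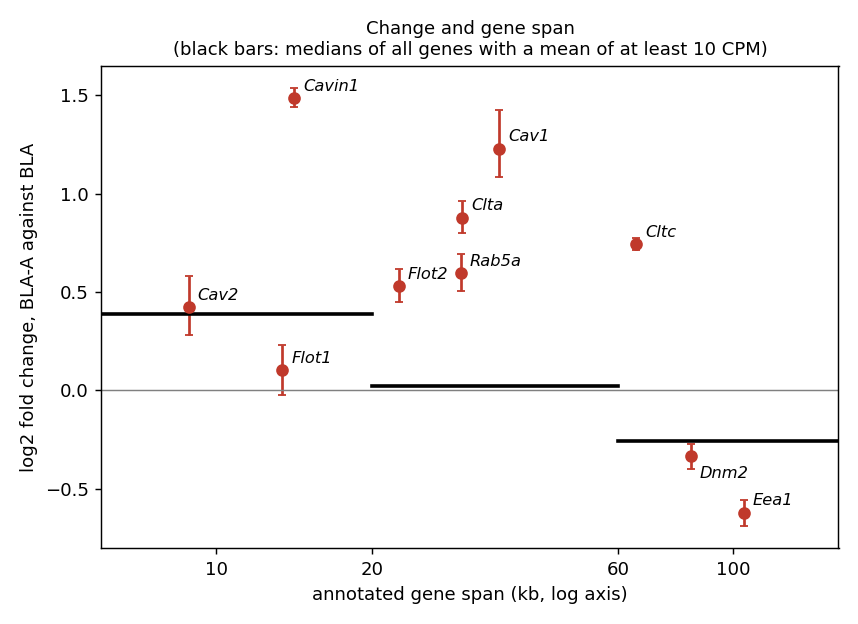
Log2 fold change of BLA-A against BLA for each of the 10 genes against annotated gene span (kb, log axis), with 95% counting intervals; black bars are the medians of all genes with a mean of at least 10 CPM up to 20 kb, from 20 to 60 kb and over 60 kb. Cavin1, Cav1, Clta and Cltc lie well above the bar of their length group, and Cav2 and Dnm2 lie near it.

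A further 89 endocytosis genes in 7 lists by role were measured, and 86 of them had enough counts to be kept. Over all lists, 2 were over 1 and 1 under -1 in BLA, 5 and 2 in BLA-A, 1 and 1 in BLU, while BLU-A had 0 and 1. Of all genes kept, 16.5% exceeded 1 in size in BLA, 20.9% in BLA-A, 10.3% in BLU and 7.85% in BLU-A. Of those with a mean of at least 10 CPM, 5.22%, 12.6%, 2.4% and 0.86% did in the same order. With scaling by total counts, the BLA-A counts were 2 and 4. The median log2 fold change of the 86 genes was 0.02, 0.10, -0.03 and -0.01 in the same order. With scaling by total counts it was -0.09 in BLA-A and -0.01 in BLA, so neither has a direction. In BLA-A against BLA 10 were over 1 and 4 under -1, and in BLU-A against BLU 0 passed in either direction. Beside these, 24.5% and 6.76% of all genes kept passed, and 17.5% and 0.358% of those with a mean of at least 10 CPM. The listed genes passed less often than all genes kept in each comparison, a background that includes low genes. Beside the genes with a mean of at least 10 CPM, this did not hold in BLU-A. In BLU and in BLA-A against BLA the shares were close to that background.

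In the list of clathrin coat, adaptor and accessory genes, the median was 0.08 in BLA, 0.11 in BLA-A, 0.06 in BLU and 0.04 in BLU-A, and the BLA-A median turned to -0.08 with scaling by total counts. Ap2a1, a large subunit of the AP-2 adaptor that links clathrin to cargo, was at 40.9 CPM in untreated cells, 44.2 in BLA, 85.8 in BLA-A, 36.4 in BLU and 44.8 in BLU-A. Its log2 fold change in BLA-A was 1.06 (0.87 with scaling by total counts), the same direction as Cltc and Clta there. The list was split in BLA-A, with 3 of its 26 genes over 0.5 and 3 under -0.5. Of all genes kept, 49.5% passed 0.5 there in either direction. Hip1, a clathrin and actin linker and the most abundant gene of the list, was at 304.6 CPM in untreated cells and 372.2 to 384.1 in the 4 treatments. Amph, an amphiphysin, had 43 counts in untreated cells and 6 in BLA-A.

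Of the 9 other caveolar genes 8 passed the filter, and their median was -0.19 in BLA, 0.13 in BLA-A, -0.15 in BLU and -0.04 in BLU-A; the BLA-A median was -0.06 with scaling by total counts. Pacsin3, a membrane-bending protein of caveolae, was at 12.7 CPM in untreated cells, 10.8 in BLA, 25.9 in BLA-A, 9.72 in BLU and 12.0 in BLU-A, and its log2 fold change of 1.00 in BLA-A was 0.81 with scaling by total counts. The order of its libraries resembled that of Cavin1, high in BLA-A and low in both extracts. The medians of genes up to 20 kb with a mean of at least 10 CPM went the same way, at -0.28 in BLA, -0.22 in BLU and 0.14 in BLA-A. Of the 8 genes in BLA-A, 3 were over 0.5, which were Pacsin3, Ehd2 (0.96) and Ehd1 (0.65), and 1 was under -0.5, which was Cavin2 (-0.74). With scaling by total counts Ehd2 was at 0.77 and Ehd1 at 0.46. Of all genes kept, 49.5% passed 0.5 there in either direction. Ehd4, a membrane ATPase and the most abundant of the list, lay between 256.4 and 280.1 CPM in all 5 libraries.

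The other dynamins were low. Dnm1, the neuronal dynamin, was at 8.78 CPM in untreated cells, 20.7 in BLA, 14.4 in BLA-A, 14.6 in BLU and 15.1 in BLU-A. It was higher in every treatment, by 1.19 in BLA and by 0.68 to 0.75 on the log2 scale in the other 3. Dnm3 was at 4.35 CPM in untreated cells, 7.49 in BLA, 1.98 in BLA-A, 8.31 in BLU and 4.72 in BLU-A.

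The median of the 23 other early endosome genes stayed between 0.04 and 0.12 in the 4 treatments, but was -0.14 in BLA-A with scaling by total counts. Hgs, the ESCRT-0 subunit that sorts ubiquitinated cargo, was at 57.0 CPM in untreated cells, 55.9 in BLA, 114.8 in BLA-A, 47.0 in BLU and 59.1 in BLU-A. Its log2 fold change in BLA-A was 1.00, and 0.81 with scaling by total counts. Rab31, a GTPase of the RAB5 subfamily and the most abundant of the list, was at 200.2 CPM in untreated cells and 304.4 in BLA, 277.7 in BLA-A, 296.4 in BLU and 246.3 in BLU-A. Of the 10 recycling and late endosome genes 9 passed the filter and 0 had a log2 fold change over 1 in size. Rab7, which marks late endosomes, lay between 181.5 and 204.5 CPM.

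**Figure D5:**
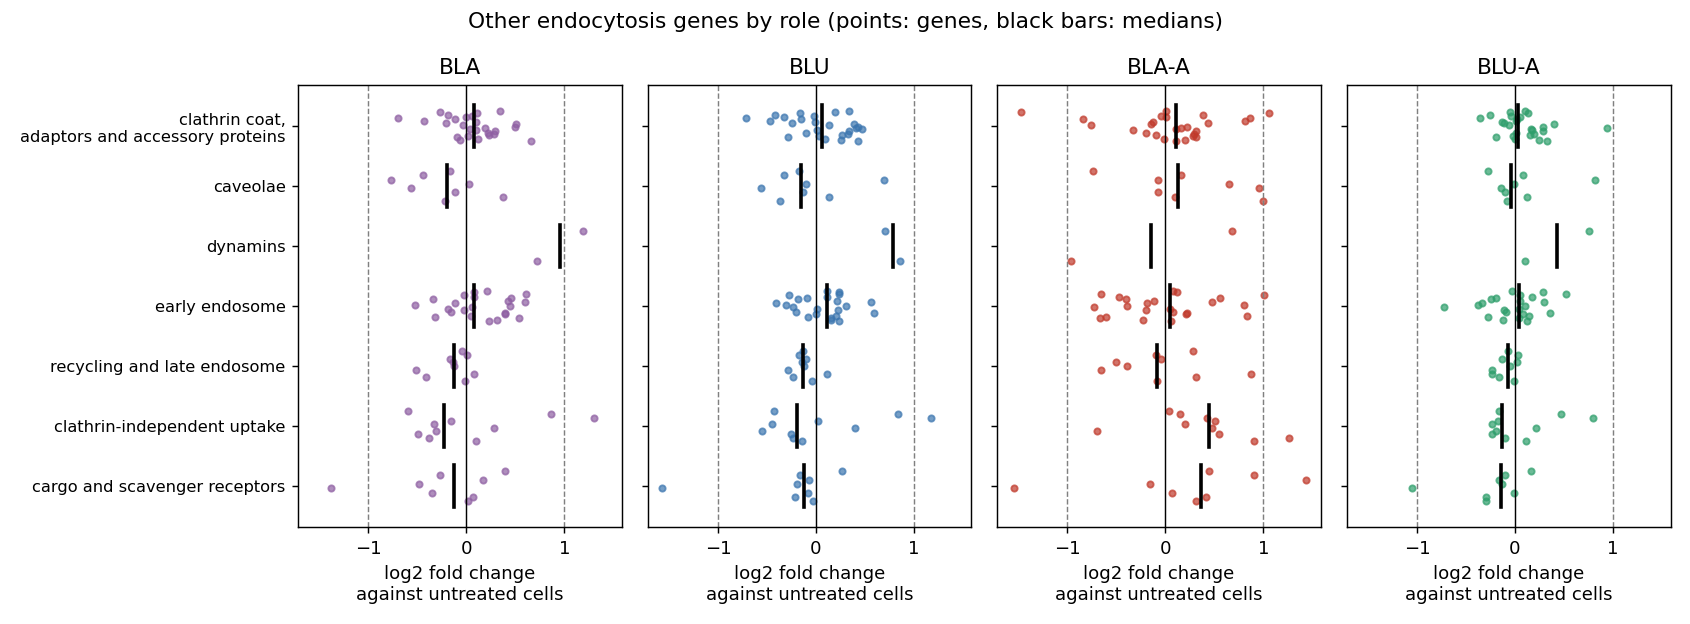
Log2 fold change against untreated cells of the endocytosis genes outside the 10, by role (rows) and treatment (panels); points are genes, black bars list medians and dashed lines 1 in size. Points spread most widely in BLA-A and least in BLU-A, with medians near 0 for the clathrin and early endosome lists.

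The clathrin-independent list had a median of 0.45 in BLA-A (0.26 with scaling by total counts), beside -0.23, -0.19 and -0.13 in BLA, BLU and BLU-A. Rhoa, an actin-regulating GTPase, was at 162.4 CPM in untreated cells, 124.9 in BLA, 390.6 in BLA-A, 138.1 in BLU and 151.1 in BLU-A. Its pattern, with BLA-A high and both extracts low, was also that of Cavin1, and was not particular to uptake genes. The medians of genes up to 20 kb with a mean of at least 10 CPM had the same directions. Rac1, a GTPase of membrane ruffling, was at 311.4 CPM in untreated cells, 221.3 in BLA, 455.9 in BLA-A, 261.1 in BLU and 265.6 in BLU-A. Arhgap26, the GTPase-activating protein GRAF1 of tubular carriers, was at 129.9 CPM in untreated cells, 320.3 in BLA, 173.9 in BLA-A, 293.3 in BLU and 225.7 in BLU-A. It was higher in all 4 treatments, most in the plain extracts. Its annotated span is 383.2 kb.

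Among cargo and scavenger receptors the median was 0.36 in BLA-A (0.18 with scaling by total counts) and between -0.15 and -0.12 in the other treatments. Lrp1, a large endocytic receptor of the LDL receptor family, was at 531.7 CPM in untreated cells, 598.6 in BLA, 1441 in BLA-A, 505.1 in BLU and 474.9 in BLU-A. Its log2 fold change of 1.44 in BLA-A was the highest among the listed genes in that treatment. Msr1, a macrophage scavenger receptor, had 29 counts in untreated cells, 3 in BLA, 1 in BLA-A, 1 in BLU and 7 in BLU-A, near the floor of 3 counts (0.111 to 0.117 CPM).

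Of 9764 other genes with a mean of at least 10 CPM, those most like Cav1 and Cavin1 over the 5 libraries were ranked by the root mean square difference of centred log2 CPM, where 0 is an identical pattern. Nearest to Cav1 were Hoxa2 (0.0532), Dapk3 (0.0746) and Perp (0.0831). Hoxa2, for example, was at 12.8 CPM in untreated cells, 6.31 in BLA, 16.6 in BLA-A, 12.4 in BLU and 12.3 in BLU-A. Nearest to Cavin1 were Hcfc1 (0.0325), Lgals3bp (0.0331) and Cdk4 (0.0412). Hcfc1 was at 201.4 CPM in untreated cells, 139.6 in BLA, 385.9 in BLA-A, 141.8 in BLU and 169.7 in BLU-A. No other member was among these neighbours. Cavin1 ranked 3974 in likeness to Cav1, and the nearest members were Cav2 to Cav1 (0.323, rank 1305) and Clta to Cavin1 (0.234, rank 708).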

How the data were processed

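Bulk RNA-seq of 4T1 cells in 5 conditions was examined from the deposited table of raw counts per gene. The authors removed ribosomal RNA, aligned to GRCm39 with STAR, merged mates into single-end files and counted over whole genes by strand in OmicsBox. The authors' own comparison (log2 fold change, p-value, FDR) and GO enrichment tables were not used. The 3 columns of a condition were averaged if their chi-square divided by its degrees of freedom did not reach 1.5, as in all 5. A gene was kept if any library had 1 CPM or more of it, and counts were normalized by TMM (edgeR 4.0.16, R 4.3.3). A pseudocount of 0.5 CPM was added before log2 fold changes. The quasi-likelihood tests used a Benjamini-Hochberg adjusted p of 0.05, with DESeq2 1.42.0 as an alternative. Positions came from GENCODE M39 on GRCm39. The members and the 7 lists were chosen with earlier results of these data known. Of a list, the most abundant gene and up to 4 genes past a 2-fold difference (log2 of 1) in a treatment were named. Dnm3, the other gene of its list, and Cavin2, Ehd1 and Ehd2 were named after their values were seen. The genes nearest in pattern were the 3 closest to each member with a range of at least 1. Alternatives covered normalization, filter, pseudocount, columns, test and libraries. The tests were tried on simulated data with planted changes larger than any of the members' changes. Their power for changes of the members' size was not measured.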

Additional observations from a re-analysis of the deposited data

Results flagged for a closer look

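Cltc and Rab5a are listed because their difference between nanoparticle and extract had opposite signs in the 2 berries beyond counting error. Cltc was 0.74 higher (log2) in BLA-A than in BLA and at -0.09 in BLU-A against BLU. In the latter pair the median of its length group was -0.14. Rab5a was 0.60 higher in BLA-A than in BLA and at -0.49 in BLU-A against BLU. The difference between the berries was not tested, since each condition had 1 library.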

How the results depend on the processing

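With 1 library per condition, the fold changes carry counting error only. The count of members over 1 in size in BLA-A against untreated cells was 1 (Cavin1) with DESeq2 size factors and 1 with no filter on low counts, and 0 otherwise. Scaling by total counts left 2 members over 0.5 there. Signs turned between scalings for Cltc in BLA, Dnm2 in BLA-A and Flot1 in BLA-A against BLA. In the test of nanoparticles against extracts, 1 member (Cavin1) was called with no filter (1.86% of genes), 5 without the BLU-A library, and 0 without each other library, with DESeq2 or with berry as a covariate. With the 15 columns as separate samples, 5 members were called (50.1% of genes), and 5 with the replicate block (43.5%). For treated against untreated cells, 1 member (Cav2) was called with the 15 columns without the block (20.1%) and 0 with the replicate block (14.1%). Same-numbered columns did not deviate together, with a mean correlation of -0.00111 over 30 pairs, so the block pairs no samples.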
